A study of Rattus norvegicus with 6 samples.

Results

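Liver and cortex of the Brown Norway rat, an inbred strain, were compared for long non-coding RNAs (lncRNAs) over all transcripts with values in a deposited expression table, 2455 of 2458. RNA came from males aged 6 weeks, labelled strain BN, in both tissues, and no treatment is named in the labels. The series holds 6 samples, 1 for each of 6 tissues, and the comparison uses 2 of them. The table gave 2 columns of FPKM (fragments scaled by transcript length and library total) for each tissue, so 4 of its 12 columns enter here. Paired values for a tissue are FPKM in column 1 and then column 2. Nothing in the labels tells if the 2 columns stand for different animals, and each p-value therefore covers the scatter between columns alone, which may be technical. The cortex label names no organ.

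LncRNAs are transcripts that are processed much like messenger RNAs but are not translated into a recognised protein. They tend to be expressed at low levels and in fewer tissues than protein-coding genes, and some are transcribed from the strand opposite a coding gene or serve as the precursor of a microRNA. The liver is made up mainly of hepatocytes, which secrete plasma proteins, metabolise lipids and make bile acids.

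At the minimum of 1 FPKM used here, most transcripts tested stood apart between the tissues. The largest differences were between clear levels in one tissue and values near 0 in the other. Of 772 transcripts (602 loci) averaging at least 1 FPKM in liver or cortex, 412 differed (limma on log2(FPKM + 0.1), two-sided, Benjamini-Hochberg adjusted p below 0.05), which is 53.4% of those tested. Of these, 188 transcripts at 160 loci were higher in liver (24.4% of those tested) and 224 at 178 loci were higher in cortex (29.0%). The other 360 did not pass the test, and 459 of the 772 had an unadjusted p below 0.05. The share called depends on the minimum, which favours transcripts high in 1 tissue. At a minimum of 0.5 FPKM, 505 of 1118 were called, and with no minimum 480 of 2142. Both liver columns lay above both cortex columns for 293 transcripts (38.0%) and both cortex columns above both liver columns for 321 (41.6%). The 2 tissues overlapped for none of the 412 called transcripts, so leaving out a column cannot reverse their direction. Another 202 that were not called also had columns that did not overlap. Fold changes here are on the log2(FPKM + 0.1) scale, as liver minus cortex, and that scale understates the change of low transcripts. The number of calls depended on having both cortex columns. It was 157 without cortex column 1, of which 36 were higher in liver, and 132 without cortex column 2, of which 30 were higher in liver. In those fits the spread of each transcript comes from its 2 liver columns alone, and without a liver column it comes from the 2 cortex columns alone. Of 60 called transcripts chosen for description, 40 were not called without cortex column 1 and 40 without cortex column 2, with no change of direction, and this is repeated below only where another setting also ended the call.

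**Figure D1:**
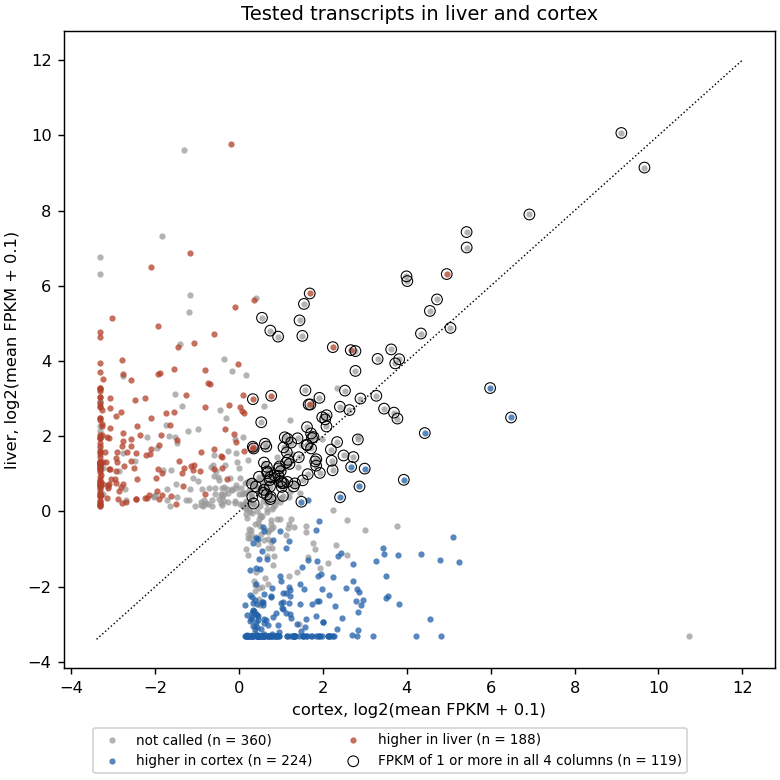
Mean FPKM in liver against mean FPKM in cortex for the 772 tested transcripts, both axes as log2(mean FPKM + 0.1), with transcripts higher in liver in red, higher in cortex in blue and not called in grey. Black rings mark the 119 transcripts at an FPKM of 1 or more in all 4 columns, which lie around the dotted line of equal levels, while many called transcripts lie along the lowest value on one axis.

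The tissues also differed in depth and in how far their columns stood apart. Low FPKM values fell on steps, which implied 12100000 and 3880000 fragments in the liver columns and 17190000 and 14840000 in the cortex columns. For a transcript of 1 kb, 3 fragments then correspond to an FPKM of 0.248 and 0.774 in liver and of 0.175 and 0.202 in cortex. Of the transcripts averaging at least 1 FPKM in a tissue, 94 of 473 stood 4-fold or more apart between the liver columns and 21 of 472 between the cortex columns. The median distance was 1.64-fold in liver and 1.22-fold in cortex. Of the 94 in liver, 48 were higher in column 2 and 46 in column 1, and 5 were called, beside 53.4% of all tested. Of the 21 in cortex, 3 were called. The test weighs a difference against the gap between columns, so a low share called follows from how these were chosen. Exactly 0 was listed for 914 and 1221 transcripts in the liver columns and for 767 and 806 in the cortex columns, and 313 were at 0 in all 4.

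**Figure D2:**
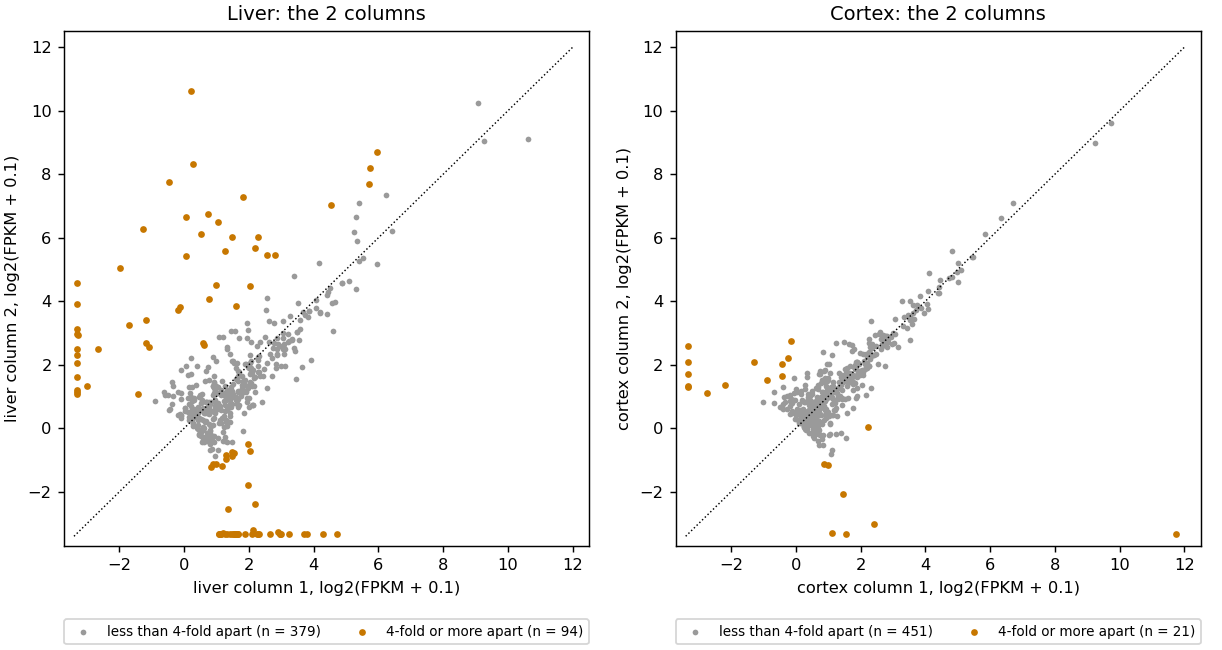
Column 2 against column 1 for transcripts averaging at least 1 FPKM in liver (left, 473) or cortex (right, 472), as log2(FPKM + 0.1), with transcripts 4-fold or more apart in orange. The 94 orange points in liver fall on both sides of the dotted line of equal levels, and cortex has 21.

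The 5 transcripts whose liver columns stood furthest apart were high in 1 column only, and none was called. TCONS_00048236, a transcript of 226 bases at chr18:28103994-28139181, was at 1.05 and 1575 FPKM in liver and at 0.609 and 0 in cortex. TCONS_00013762 was at 1.11 and 320 in liver, and TCONS_00094226 at 0.624 and 217. Two-sided limma gave these 3 adjusted p-values of 0.242, 0.194 and 0.171. TCONS_00021769, antisense to the microRNA gene Mir3588, was listed at 0 and 24.0 in liver. TCONS_00113045 went the other way, at 26.2 and 0.

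Some transcripts at microRNA genes were among those compared, and the one at Mir675 was abundant in both tissues. A microRNA pairs with its targets mainly through its seed, bases 2 to 8 from the 5′ end. The table holds 81 transcripts at 26 microRNA genes, a list drawn up after the gene names were seen. Of the 9 genes with a tested transcript, mature sequences of 8 were read from RefSeq (GRCr8) by gene symbol, and the entry for Mir365 is the one RefSeq names Mir365b. They are shown for the genes described next, with the seed in capitals, to identify which microRNA each locus encodes. The values are those of the long transcript over the locus, not of the mature microRNA.
rno-miR-675-5p: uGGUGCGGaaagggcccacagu
rno-miR-675-3p: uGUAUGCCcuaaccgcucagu
rno-miR-365-3p: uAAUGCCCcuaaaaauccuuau
rno-miR-29b-3p: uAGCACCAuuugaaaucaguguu
rno-miR-6326: cUGGUCUGuaaagggacacagca
rno-miR-223-3p: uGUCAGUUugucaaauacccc
rno-let-7c-5p: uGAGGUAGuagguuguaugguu

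Of the 10 tested transcripts at these 9 microRNA genes, 0 were called higher in liver and 2 higher in cortex, against 24.4% and 29.0% of all tested transcripts, with a median log2 difference of 0.52, against 0.08 over all tested. The most abundant was TCONS_00012142 at Mir675 (chr1:222639220-222642054), the microRNA gene that lies within the imprinted lncRNA gene H19. It was at 39.2 and 100 FPKM in liver and at 14.3 and 17.8 in cortex. Both liver columns lay above both cortex columns, but the difference of 1.97 ± 0.60 (SE) did not pass the test (limma, adjusted p = 0.0710), while over the alternatives that p ranged from 0.0105 to 0.322 and was below the threshold without liver column 1. In the outer medulla, a region of the kidney, the same transcript was at 0.318 and 0.176. TCONS_00015922, antisense to Mir365 (chr10:64448016-64572533), was at 0.916 and 1.37 in liver and at 2.84 and 3.24 in cortex. The value in liver column 2 lay below the 2.68 FPKM that 3 fragments give there at this length, 427 bases. The transcript was called higher in cortex, with a difference of −1.36 ± 0.32 (limma, adjusted p = 0.0417). That call was lost with the replicate block (limma, adjusted p = 0.0821), without liver column 1, without either cortex column and in the fit on 12 columns, among others, and the limma adjusted p ranged from 0.0177 to 0.227 over the alternatives.

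Both transcripts tested at Mir143, a microRNA gene known for its expression in smooth muscle, were lower in liver. TCONS_00050239 was at 0.536 and 0.423 in liver and at 2.148 and 2.22 in cortex (difference −1.99 ± 0.24, limma, adjusted p = 0.0089). It was not called when the transcripts of the locus were summed. TCONS_00050246 was at 0.426 and 0.790 against 1.54 and 1.48 and did not pass the test (limma, adjusted p = 0.0676, with a range of 0.0334 to 0.366 over the alternatives and the lowest value without liver column 2). At Mir29b-2, whose mature strand shown above is the same as that of Mir29b-1, TCONS_00030100 was at 1.13 and 1.84 in liver and at 2.40 and 2.32 in cortex (difference −0.67, 95% interval −1.74 to 0.40). The Mir29b-1 transcript TCONS_00078268 was listed at 0 and 4.06 in liver and at 0.0739 and 0 in cortex, so its single high value came from liver column 2. TCONS_00015815 at rno-mir-6326 was at 4.76 and 3.82 in liver and at 0.658 and 0 in cortex, with columns that did not overlap and a limma adjusted p of 0.0676. It passed summed over the locus (limma, adjusted p = 0.0112), with a pseudocount of 1 (0.0164) and without cortex column 1. The highest value over the alternatives was 0.285, in the fit on 12 columns with array weights. TCONS_00021712 at Mirlet7c-1, at 1.68 and 0.332 against 0.212 and 0.552, overlapped. TCONS_00111306 at Mir223, a microRNA gene of myeloid blood cells, was at 0.829 and 1.20 in liver and at 0.643 and 1.34 in cortex (difference 0.08, 95% interval −1.35 to 1.52).

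The transcript with the largest difference towards liver was TCONS_00058886, 470 bases long and without a reference gene, at chr2:74647872-74659763. It was at 543 and 1217 FPKM in liver and at 0.346 and 1.21 in cortex. Every liver value lay far above both cortex values, with a difference of 10.06 ± 0.80 (limma, adjusted p = 0.0041). TCONS_00013763 (chr1:281545041-281548927) was at 75.4 and 161 in liver and at most at 0.687 in cortex, with a difference of 8.62 ± 1.27 (limma, adjusted p = 0.0137). That call was lost without either liver column, without cortex column 1 and with a pseudocount of 0.01, and the limma adjusted p ranged from 0.000475 to 0.106 over the alternatives. Positions are those of the locus on the rat genome build rn5 as the table gives them.

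The third was TCONS_00047225 (chr17:71324693-71393480), antisense to Akr1c19, a member of the aldo-keto reductase genes. It was at 42.3 and 137 FPKM in liver and at 0.0796 and 0.184 in cortex, a difference of 8.40 ± 0.76 (limma, adjusted p = 0.0049). A second transcript over the same interval, TCONS_00047227, antisense to Akr1c12 of the same group, was at 5.79 and 43.8 in liver and listed at 0 in both cortex columns (limma, adjusted p = 0.0157). Summed over the locus, the liver values were 48.1 and 181 and the cortex values 0.0796 and 0.184. The sources used here do not give the strand setting of the counting, and antisense and overlapping transcripts may therefore include reads of the gene itself.

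The other members of the 10 largest differences towards liver ranged from 6.58 to 8.01 on the log2 scale. TCONS_00072312, of 8795 bases at chr3:148660323-148680168, was at 17.9 and 36.8 FPKM in liver and below 0.001 in both cortex columns. TCONS_00060710, which overlaps RGD1564915, was at 18.2 and 12.4 in liver, and TCONS_00008421, which overlaps ENSRNOG00000031005, was at 11.1 and 8.03. Both were listed at 0 in both cortex columns, and their liver columns were the closest together of the 10. TCONS_00033518 was at 5.83 and 17.2 in liver, and TCONS_00070629 at 3.99 and 22.2. TCONS_00061221 was at 39.8 and 20.8 in liver and at 0.325 and 0 in cortex, and its call was lost without either liver column, without cortex column 2 and with a pseudocount of 0.01 (limma, adjusted p of 0.000227 to 0.0882 over the alternatives). TCONS_00097358 had the widest spread of the 10, at 4.76 and 65.6 in liver, with a limma adjusted p of 0.0311 (0.000234 to 0.221 over the alternatives), and was not called with no FPKM minimum, with a pseudocount of 1 or without either cortex column.

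**Figure D3:**
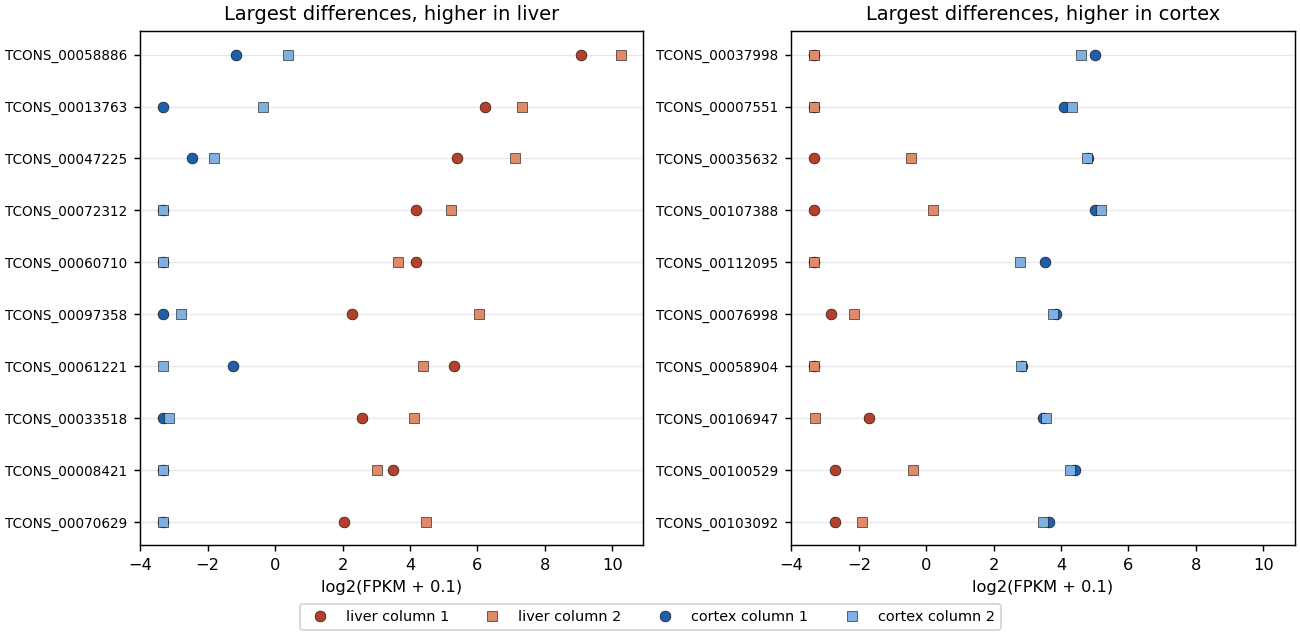
The 10 called transcripts with the largest difference in each direction, 1 per locus, with each of the 4 columns as a point on log2(FPKM + 0.1). In every row the 2 red points of liver and the 2 blue points of cortex lie apart, and the liver points of TCONS_00097358 (4.76 and 65.6 FPKM) are the widest pair.

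The transcript with the largest difference towards cortex was TCONS_00037998, of 310 bases at chr15:30010515-30035706, with no reference gene. It was at 32.2 and 24.2 FPKM in cortex, below 0.001 in liver column 1 and listed at 0 in liver column 2 (difference −8.13 ± 0.28, limma, adjusted p = 0.0031). Its neighbour at the same locus, TCONS_00037997, was the most abundant called transcript in cortex, at 80.8 and 98.1, and was at 2.87 and 8.24 in liver (difference −4.16 ± 0.65, limma, adjusted p = 0.0151). Summed over the locus, cortex was at 142 and 170 and liver at 3.47 and 8.24. Outer medulla was close to cortex for both, at 34.0 and 34.0 for TCONS_00037998 and at 96.0 and 97.2 for TCONS_00037997.

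TCONS_00007551 (chr1:35676445-35681226) was listed at 0 in both liver columns and stood at 17.0 and 19.8 FPKM in cortex (difference −7.53 ± 0.24, limma, adjusted p = 0.0031). The 4 transcripts of its locus summed to 57.6 and 60.4 in cortex, to 0.0753 and 0.710 in liver and, in outer medulla, to 71.4 and 72.4. The locus starts 988 kb beyond the end of the Irx2 locus described with the kidney genes. TCONS_00058904 (chr2:76756770-76772365), antisense to ENSRNOG00000018121, was at 7.08 and 6.86 in cortex and below 0.001 in liver. Its cortex columns were the closest together of the 10, and its standard error of 0.20 the smallest.

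TCONS_00106947 and TCONS_00100529 were also in the 10, and both were higher still in outer medulla. TCONS_00106947 (chr9:49148500-49151866) was at 10.95 and 11.7 FPKM in cortex, at most at 0.205 in liver and at 20.3 and 22.6 in outer medulla. TCONS_00100529 (chr8:33536860-33572665) was at 21.2 and 19.2 in cortex, at 0.0528 and 0.660 in liver and at 47.3 and 49.4 in outer medulla. TCONS_00112095 (chrX:116058963-116062369) and TCONS_00103092, antisense to Vstm5 (chr8:13465153-13774863), were lower in outer medulla than in cortex. TCONS_00112095 was at 11.3 and 6.74 in cortex and at 0.650 and 0 in outer medulla. TCONS_00103092 was at 12.3 and 10.8 in cortex and at 3.17 and 3.92 in outer medulla.

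Of the remaining 3 in that direction, TCONS_00076998 was at 14.4 and 13.6 in cortex and at 0.0398 and 0.124 in liver. TCONS_00035632 was at 28.0 and 27.0 in cortex and at 0 and 0.624 in liver, and its call was lost without either cortex column and with 0.01 as the pseudocount (limma, adjusted p of 0.000475 to 0.177 over the alternatives). TCONS_00107388 shares a splice junction with Myl1, a myosin light chain gene of striated muscle. It was at 32.1 and 36.5 in cortex, at 0 and 1.05 in liver and at 0.695 and 0.937 in outer medulla. In adrenal gland it was as high as in cortex, at 34.7 and 32.4, and in left ventricle it was at 4.43 and 34.9. Its call (limma, adjusted p = 0.0320) did not hold with no FPKM minimum, a pseudocount of 0.01 or either cortex column left out, and ranged from 0.00122 to 0.227 over the alternatives.

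The levels of the called transcripts in tissues the test did not use differed by direction. Of the 188 transcripts higher in liver, the median was 2.90 FPKM in liver and 0.0448 in cortex. Liver had the highest mean of the 6 tissues for 177, adrenal gland for 7 and left ventricle for 4, and 37 were below 0.1 FPKM in both columns of all 5 other tissues. Of the 224 transcripts higher in cortex, the median was 1.90 in cortex and 0.0347 in liver. Cortex had the highest mean for 171, outer medulla for 35, adrenal gland for 10, left ventricle for 7 and hypothalamus for 1. Over all 772 tested, the highest mean was in liver for 326, cortex for 238 and outer medulla for 73. It was in adrenal gland for 68, left ventricle for 57 and hypothalamus for 10. The calls used the liver and cortex values, so a high rank of the called tissue is partly built in. The column code read as hypothalamus was matched to that label by elimination. In bulk tissue, fewer cells of a type and less RNA per cell cannot be told apart.

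Outer medulla was the tissue nearest to cortex for the transcripts higher in cortex. Their median there was 1.05 FPKM, and 117 of the 224 were at a mean of 1 or more, against 28 in left ventricle, 27 in adrenal gland and 11 in hypothalamus. Both outer medulla columns lay above both liver columns for 187 of the 224. That count reuses the low liver values by which these transcripts were called, so it says little about outer medulla. The median ratio of outer medulla to cortex was 0.495. It ranged widely, with 57 transcripts in outer medulla under 0.2 of their cortex level and 31 at least as high there in both columns. For the transcripts higher in liver, the medians of the 4 tissues not compared were 0.107 in left ventricle, 0.0546 in outer medulla, 0.0164 in adrenal gland and 0.00959 in hypothalamus. These comparisons with other tissues are counts and were not tested.

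**Figure D4:**
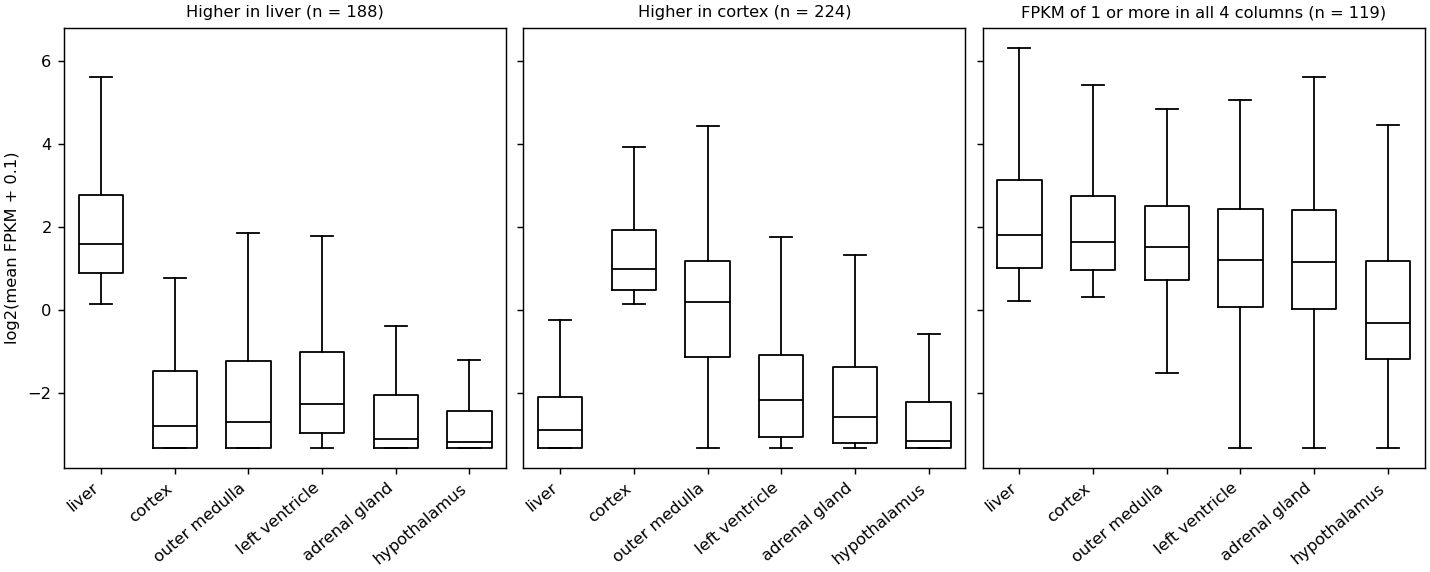
Mean FPKM per tissue, as log2(mean FPKM + 0.1), of the transcripts higher in liver (left), higher in cortex (middle) and at an FPKM of 1 or more in all 4 columns (right), with boxes from the lower to the upper quartile, a line at the median, whiskers to the furthest value within 1.5 box heights and values beyond them not drawn. Liver and cortex values chose the groups. Outer medulla has the next highest median in the middle panel (1.05 FPKM), and in the left panel the medians outside liver are at or below 0.107.

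Within the 188 transcripts higher in liver, 103 were below 0.1 FPKM in both cortex columns and 46 of them were listed at exactly 0 in both. Within the 224 higher in cortex, 129 were below 0.1 in both liver columns and 76 were listed at 0 in both. A listed 0 allows a higher level in liver column 2, which is the shallowest, than in the cortex columns. Another tissue than liver and cortex stood at an FPKM of 1 or more for 36 of the transcripts higher in liver, and for 11 of these 188 a tissue not compared had a higher mean than liver. Among the 11 were TCONS_00073698, which overlaps Reln, the gene of the extracellular protein reelin, and TCONS_00046645, antisense to Scgn, a calcium-binding protein gene. TCONS_00073698 was at 1.10 and 1.29 in liver, at 0 and 0.223 in cortex and at 8.09 and 5.59 in adrenal gland, and its call (limma, adjusted p = 0.0458) was lost with the replicate block (limma, adjusted p = 0.0560), with any 1 of the 4 columns left out and with a minimum of 0.5 FPKM or none, among others (0.00540 to 0.202 over the alternatives). TCONS_00046645 was at 1.63 and 0.853 in liver, listed at 0 in cortex and at 3.88 and 2.83 in left ventricle.

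Genes typical of hepatocytes had few transcripts in the table, and the 4 tested were all higher in liver, as were 24.4% of all tested. All 4 reached the minimum for a test through liver alone, so their direction was largely set by that filter. Of 62 genes in the list, 5 were named in the table, with 1 transcript each. TCONS_00006231 overlaps MBL2, the gene of a mannose-binding lectin that the liver secretes, and was at 13.1 and 11.7 FPKM in liver and at 0.0432 and 0.0499 in cortex (difference 6.41 ± 0.23, limma, adjusted p = 0.0031). TCONS_00008160, antisense to Slc27a5, which encodes a bile acid CoA ligase, was at 8.41 and 4.97 in liver and at 0.0351 and 0 in cortex (difference 5.82, limma, adjusted p = 0.0036). TCONS_00032321, antisense to Afp, the alpha-fetoprotein gene, was at 1.41 and 0.679 in liver and at 0 in both cortex columns (limma, adjusted p = 0.0120). The fourth was the Akr1c12 antisense transcript described above. Of the 4, the MBL2 transcript alone stayed called without either cortex column. The fifth gene of the list went the other way at low levels. TCONS_00056419, which overlaps the fibrinogen gene Fga, was at 0 in both liver columns and at 0.419 and 0.161 in cortex, under the minimum for a test. The summed level of the 5 transcripts was 28.7 and 61.2 in liver and 0.497 and 0.211 in cortex.

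Kidney and neural genes were read to describe the cortex sample, whose label names no organ. Of 60 kidney tubule and nephron genes, 5 were named in the table and 4 had a tested transcript, with 2 called higher in cortex and 1 higher in liver (29.0% and 24.4% of all tested). Each of the 4 reached the minimum for a test in a single tissue, so its direction was largely set by that filter. TCONS_00007547 shares a junction with Irx2 and TCONS_00051097 is antisense to Irx3, both Iroquois transcription factor genes active along the nephron. The first was at 1.06 and 1.42 FPKM in cortex and at 0.0965 and 0 in liver (difference −3.25, limma, adjusted p = 0.0135), and its call was lost without either cortex column and with 0.01 as the pseudocount (limma, adjusted p of 0.00349 to 0.127 over the alternatives). The second was at 0.938 and 1.09 in cortex and at 0 in both liver columns (difference −3.47, limma, adjusted p = 0.0045). TCONS_00067610 overlaps Slc12a1, the sodium, potassium and chloride cotransporter gene of the thick ascending limb, and was at 12.2 and 14.7 in cortex, at 0 and 1.32 in liver and at 36.5 and 36.6 in outer medulla. Its columns did not overlap, but the difference of −5.16 ± 1.53 did not pass the test (limma, adjusted p = 0.0676). It passed without either liver column and in the fits on 12 columns, with limma adjusted p-values of 0.00579 to 0.332 over the alternatives.

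The kidney list also held a transcript in the opposite direction. TCONS_00071430, antisense to Wt1, a transcription factor gene of the developing kidney and of podocytes, was at 2.69 and 0.496 FPKM in liver and at 0 in both cortex columns. Its call (limma, adjusted p = 0.0458) was lost with a minimum of 0.5 FPKM or none, with a pseudocount of 1, with the replicate block (limma, adjusted p = 0.0652) and without either cortex column, and ranged from 0.000273 to 0.266 over the alternatives. The summed level of the kidney list was 14.2 and 17.7 in cortex, 2.82 and 1.82 in liver and, for outer medulla, 39.3 and 39.8. Of 41 neural genes, 4 were named, with 8 transcripts of which 0 reached the minimum for a test. Their highest value in the 4 columns was 0.176. They summed to 0.120 and 0.0650 in cortex, to 0.0578 and 0.417 in liver and to 8.96 and 9.63 in hypothalamus.

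The lists of imprinted, blood, muscle and known lncRNA genes were thinly covered. Of 23 imprinted genes, Mir675 and Plagl1 were named. TCONS_00000085, which shares a junction with the zinc finger gene Plagl1, was at 1.64 and 1.59 FPKM in cortex and at 0.113 and 0.176 in liver (difference −2.82 ± 0.25, limma, adjusted p = 0.0046). Of 39 known lncRNA genes only Snhg11 was named, with 1 transcript under the minimum for a test. Of 20 muscle genes, 2 (Myl1 and Mir143) were named, with 12 transcripts of which 3 were tested and 2 called, both higher in cortex (29.0% of all tested). All 3 reached the minimum for a test through cortex alone. Of 17 blood and immune genes, only Mir223 was named.

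Of 132 tested transcripts at genes with a symbol, 33.3% were called, beside 53.4% of all tested, with no test of that difference. Of the 132, 21 were higher in liver and 23 higher in cortex, and 46 were antisense, of which 14 were higher in liver and 14 in cortex. The examples named here beyond the gene lists were chosen after their values were seen. TCONS_00022825, antisense to Masp1, which encodes a protease that acts with mannose-binding lectin, was at 5.03 and 3.01 FPKM in liver and at 0.00871 and 0 in cortex (difference 5.26, limma, adjusted p = 0.0035). TCONS_00016147, antisense to the chemokine gene Ccl6, was at 8.27 and 7.82 in liver and at 0.0669 and 0.155 in cortex (difference 5.30, limma, adjusted p = 0.0035). TCONS_00105471, antisense to the acyl-CoA dehydrogenase gene Acad11, was at 3.03 and 1.76 in liver and at 0 in cortex (difference 4.59, limma, adjusted p = 0.0041). TCONS_00050203, antisense to Pdgfrb, a receptor for platelet-derived growth factor, was at 6.40 and 3.02 in liver and at 0.170 and 0 in cortex, and its call (limma, adjusted p = 0.0145) was lost with any 1 of the 4 columns left out (0.000164 to 0.111 over the alternatives).

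Among the antisense transcripts higher in cortex, several were listed at 0 in both liver columns. These were at Tcf21, a transcription factor gene of podocytes and kidney mesenchyme, Slc22a13, an organic anion transporter gene, Fto, an RNA demethylase gene, Mxi1, a gene of the MYC network, Tpd52 and the monocarboxylate transporter gene Slc16a11. TCONS_00007426 at Tcf21 was at 0.789 and 1.26 FPKM in cortex (difference −3.46, limma, adjusted p = 0.0072). TCONS_00102556 at Slc22a13 was at 0.830 and 1.35, and TCONS_00051118 at Fto at 1.45 and 0.990. TCONS_00013754 at Mxi1 was at 1.22 and 1.30, and its call was lost only when the transcripts of the locus were summed (limma, adjusted p of 0.000166 to 0.0627 over the alternatives). These transcripts are low, so that their distance from liver is bounded by the liver depth given above.

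Other antisense transcripts higher in cortex had some liver signal or lay beside each other. TCONS_00086388, antisense to the carbohydrate kinase gene Fggy, was at 2.02 and 2.09 FPKM in cortex and at 0.0852 and 0.160 in liver. TCONS_00099772, antisense to the translation initiation factor gene Eif4b, was at 6.28 and 6.26 in cortex and at 2.40 and 1.95 in liver (difference −1.49, limma, adjusted p = 0.0239), and was not called with the replicate block (limma, adjusted p = 0.0741, in a range of 0.000428 to 0.105 over the alternatives) or without either cortex column. TCONS_00095514 at Ly6i, a gene of the Ly6 family, and TCONS_00095515 at Gm20654 lie over the same interval, chr7:116261774-116411778. Both were higher in cortex, at 2.98 and 2.77 for the first and 3.46 and 3.88 for the second, against at most 0.0395 in liver.

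The next 7 called transcripts at genes with a symbol were at most at 3.69 FPKM in liver and cortex. TCONS_00074056, antisense to Ica1, an islet cell autoantigen gene, was at 2.36 and 1.74 FPKM in liver, and TCONS_00092069, antisense to the vesicle transport gene Scfd1, at 1.62 and 1.26. Both were listed at 0 in both cortex columns. TCONS_00041861, which shares a junction with Smim19, was at 3.69 and 2.10 in liver and at most at 0.0194 in cortex, and was not called in the fit on 12 columns with array weights or without either cortex column (limma, adjusted p of 0.00333 to 0.1005 over the alternatives). In the cortex direction, TCONS_00059484, which shares a junction with the orphan receptor gene Gpr160, was at 1.23 and 1.23 in cortex and at 0.183 and 0.143 in liver. TCONS_00045111, antisense to the transcription factor gene Zeb1, was at 1.41 and 1.06 in cortex and at 0.000467 and 0.103 in liver, and was not called with a pseudocount of 0.01 or without either cortex column (limma, adjusted p of 0.000197 to 0.132 over the alternatives). TCONS_00044049, antisense to Grtp1, was at 1.97 and 1.01 in cortex and at 0.388 and 0.243 in liver, and its call (limma, adjusted p = 0.0421) was lost with any 1 of the 4 columns left out, among others (0.00341 to 0.210 over the alternatives). TCONS_00037686, which overlaps Spetex-2F, was at 0.668 and 2.38 in cortex and listed at 0 in liver, and its call (limma, adjusted p = 0.0244) was lost without either liver column and with a pseudocount of 1, among others (0.000415 to 0.136 over the alternatives).

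**Figure D5:**
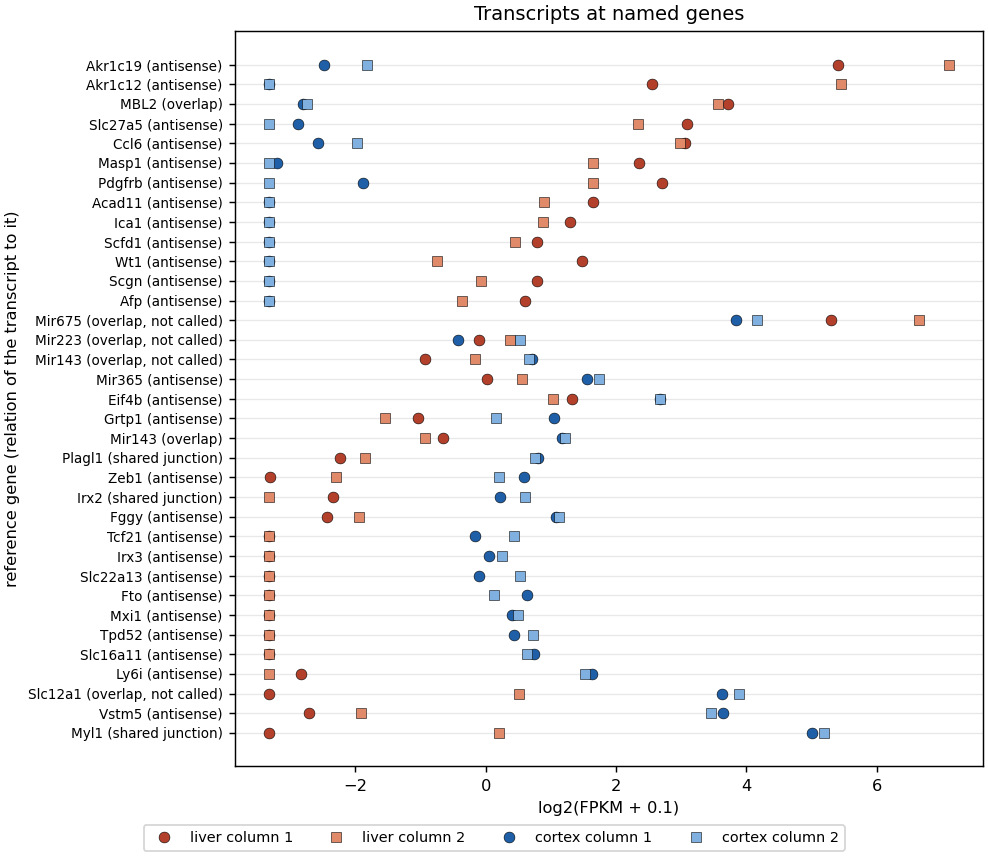
Each of the 4 columns, on log2(FPKM + 0.1), for the transcripts of the hepatocyte, kidney, imprinted, muscle and blood lists that were tested and for other called transcripts antisense to a named gene, ordered by their difference. Red points (liver) lie to the right at the top and blue points (cortex) at the bottom, and the rows marked as not called, such as Slc12a1 and Mir675, have their columns far apart within liver or close between tissues.

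Transcripts that overlap a gene in sense gave further calls in both directions. TCONS_00049656 over Nrep, a gene first described in regenerating neurons, was at 38.2 and 72.8 FPKM in liver and at 2.92 and 3.31 in cortex (difference 4.04 ± 0.45, limma, adjusted p = 0.0076). TCONS_00050643 over the translation factor gene Ctif, of 27361 bases, was at 7.65 and 5.94 in liver and at 0.879 and 0.949 in cortex. TCONS_00083749, which shares a junction with Camk2n1, an inhibitor of a calmodulin-dependent kinase, was at 21.2 and 21.7 in cortex and at 5.26 and 3.03 in liver (difference −2.39, limma, adjusted p = 0.0182). It was highest in hypothalamus, at 46.2 and 46.4. TCONS_00044335, which shares a junction with Klhl3, a gene of the distal nephron that regulates sodium transport, was at 1.10 and 0.927 in cortex and at 0 in liver.

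The share of transcripts called is given by their relation to the reference annotation. Of tested transcripts with no reference gene, 59.96% of 562 were called, and of those antisense to an exon 56.5% of 62. The share was 36.9% of 65 for other overlaps, 21.9% of 32 for matches to a reference transcript and 17.6% of 51 for transcripts sharing a splice junction. Transcripts with no reference gene made up 81.9% of those higher in liver, 81.7% of those higher in cortex and 72.8% of all tested. An FPKM of 1 or more in all 4 columns was found for 37.3% of the junction class, 21.9% of matches, 18.5% of other overlaps, 13.2% of those with no reference gene and 11.3% of antisense transcripts. These shares were not tested. Called transcripts had a median length of 1382 bases in the liver direction and 1757 in the cortex direction, against 1572 over all tested.

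Called transcripts were found on every chromosome listed, and on many the 2 directions were close in number, such as 13 higher in liver and 13 higher in cortex of 34 tested on chromosome 17 and 12 and 12 of 43 on chromosome 6. The widest gaps in the cortex direction were on chromosome 2, at 18 and 28 of 66, and on chromosome 5, at 5 and 13 of 36. In the liver direction they were on chromosome 3, at 11 and 4 of 41, and on chromosomes 7 and 18, at 19 and 14 of 57 and 12 and 7 of 33. Over all tested transcripts the shares were 24.4% and 29.0%, and the balance of single chromosomes was not tested. Called loci within 100 kb of another called in the same direction formed 28 runs, 14 in each direction, which held 59 of 338 called loci. Of the runs, 3 held 3 loci, at chr16:48780897-48881335 and chr18:70598103-71021429 (higher in liver) and at chr7:97759170-98071475 (higher in cortex). Loci with the same listed interval were counted as separate. In the chr18 run, XLOC_031304 and XLOC_031306 share an interval, as do XLOC_061212 and XLOC_061215 in the chr7 run. The pair at Ly6i and Gm20654 described above is another such case.

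A run of 2 loci on chromosome 3 (chr3:148660323-148749038) held 5 transcripts higher in liver. They included TCONS_00072312, described above, and TCONS_00072313 at the same locus, which was at 24.0 and 8.22 FPKM in liver and at 0.0214 and 0.0659 in cortex. In the second locus, TCONS_00072315 was at 7.15 and 5.60, TCONS_00072316 at 2.98 and 1.77 and TCONS_00072321 at 5.79 and 4.06 in liver, with at most 0.0103 in cortex. On chromosome 16, TCONS_00043384 was at 3.49 and 2.12 and TCONS_00041210 at 3.67 and 2.155 in liver, and both were listed at 0 in cortex. Beside Tcf21, TCONS_00007415 (chr1:25342663-25343645) was at 0.843 and 1.73 in cortex and at 0 in liver, like the antisense transcript of that gene. At its length of 427 bases, 3 fragments give 0.861 and 2.68 FPKM in the liver columns. Both cortex values lie below the second of these, so the 0 in liver column 2 says little.

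Where a locus had several tested transcripts, they did not always move together. Of 102 such loci, holding 272 transcripts, all transcripts were called higher in liver at 16 and higher in cortex at 23. At 33 some were called, in 1 direction, and others were not. None was called at 29, and at 1 locus both directions were called. That locus, XLOC_036749 at chr2:124467212-124551506 with no reference gene, holds TCONS_00059277 of 1319 bases and TCONS_00059278 of 1329 bases, which share a transcription start group. TCONS_00059277 was at 1.75 and 1.96 FPKM in liver and at 0.00374 and 0 in cortex (difference 4.26 ± 0.24, limma, adjusted p = 0.0035). TCONS_00059278 was at 0 in both liver columns and at 2.44 and 2.38 in cortex (difference −4.65 ± 0.22, limma, adjusted p = 0.0031). The sum over the locus was 1.75 and 1.96 in liver and 2.45 and 2.38 in cortex, a difference of −0.36 (95% interval −1.03 to 0.30).

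The same pair also swapped between the columns of a single tissue. In hypothalamus TCONS_00059277 was at 0.000814 and 1.79 and TCONS_00059278 at 1.83 and 0.00741. At Mbnl2, a splicing regulator gene, a transcript was present in a single liver column. TCONS_00037358 was at 6.02 and 10.4 in liver and near 0 in cortex (difference 6.31, limma, adjusted p = 0.0035), while TCONS_00037357 was at 19.3 and 0 in liver and at 5.11 and 4.86 in cortex. Summed over the locus, liver was at 25.3 and 10.4 and cortex at 5.11 and 4.86 (difference 1.68, limma, adjusted p = 0.0745). How FPKM was divided between the transcripts of a locus was not tested.

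Besides the differing transcripts, 119 transcripts at 108 loci were shared, at an FPKM of 1 or more in all 4 columns. Another 174 were at 1 or more in both liver columns and below 1 in both cortex columns, and 208 the reverse. Of the 119, 69 were near-equal, meaning that the 95% interval of the log2 difference lay within 2 units either way, which is up to 4-fold in either direction. In addition 8 were called higher in liver and 9 higher in cortex, and 33 were neither called nor near-equal. The median absolute difference of the shared transcripts was 0.58, their median length was 1886 bases and 62.2% had no reference gene. They held 44.7% of the total FPKM of the lncRNA table in liver and 42.5% in cortex, or 61.9% in cortex without TCONS_00032703. That transcript was at 3416 and 0 in cortex and listed at 0 in both liver columns, and was not called (limma, adjusted p = 0.363). The liver share still includes TCONS_00048236, at 1.05 and 1575 in liver, so 44.7% and 61.9% are not on a like basis.

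The most abundant shared transcripts had a high level in both tissues, but not always a like one. TCONS_00012467, of 11142 bases at chr1:228080092-228091758, was at 607 and 525 FPKM in liver and at 851 and 774 in cortex. Both cortex columns lay above both liver columns, but the difference of −0.52 ± 0.17 did not pass the test (limma, adjusted p = 0.0800) and its 95% interval reached from −1.04 to −0.01. TCONS_00012465 at the same locus was at 62.1 and 415 in liver and at 105 and 138 in cortex. The locus sum was 670 and 939 in liver and 956 and 912 in cortex. TCONS_00015674, of 267 bases, overlaps ENSRNOG00000047167 and was at 1587 and 555 in liver and at 609 and 500 in cortex, with overlapping columns (difference 0.77, 95% interval −1.13 to 2.67). Values set between transcripts here are FPKM, which is per length.

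Transcripts that share a junction with Glyat, which encodes an acyltransferase of liver and kidney mitochondria, were shared as well. TCONS_00005818 was at 53.8 and 291 FPKM in liver and at 44.0 and 41.7 in cortex, and TCONS_00005817 at 51.8 and 208 against 43.5 and 42.3. Liver column 1 was close to cortex and liver column 2 far above it, and neither passed the test (limma, adjusted p = 0.276 and 0.280).

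The 10 shared transcripts with the smallest difference and a near-equal interval were at 1 to 11 FPKM. TCONS_00084711, of 10538 bases at chr5:38235425-38370859, was at 3.07 and 2.17 in liver and at 2.50 and 2.67 in cortex (difference 0.00, 95% interval −0.96 to 0.96). TCONS_00092247 had one of the narrowest intervals, at 1.85 and 2.16 against 1.82 and 1.96 (difference 0.08, 95% interval −0.71 to 0.86). Others of the 10 lay at Chd2, a chromatin remodeller gene, at Slfn2, at Zfp709l1 and antisense to Stk24, a kinase gene. TCONS_00010204 at Chd2 was at 3.75 and 2.44 in liver and at 3.35 and 3.02 in cortex. TCONS_00037406 at Stk24 was at 1.28 and 1.34 against 1.05 and 1.74, and in outer medulla it was at 0 and 0.279. Its value in liver column 2 lay below the 2.01 FPKM that 3 fragments give there at its length of 523 bases.

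Near-equal levels in liver and cortex did not mean like levels elsewhere. TCONS_00032609 (chr14:43490511-43627587) was at 1.40 and 1.38 FPKM in liver, at 1.57 and 1.25 in cortex and at 38.6 and 31.2 in adrenal gland. TCONS_00103121 (chr8:15192861-15213308) was at 2.33 and 1.05 in liver and at 1.88 and 1.25 in cortex, and at 0.113 and 0.00656 in outer medulla. Of the 119 shared transcripts, a mean of 1 or more was found in outer medulla for 106, in left ventricle for 88, in adrenal gland for 87 and in hypothalamus for 51. It was found in all 6 tissues for 49, and 44 were at 1 or more in all 12 columns.

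The shared transcripts that were called mostly differed by less than the largest differences above. TCONS_00057724 (chr2:269129450-269162763) was at 85.0 and 73.8 FPKM in liver and at 31.7 and 30.0 in cortex (difference 1.36 ± 0.24, limma, adjusted p = 0.0214). TCONS_00080829, of 24315 bases, was at 6.79 and 9.87 in liver and at 1.62 and 1.57 in cortex. In the other direction, TCONS_00089705 was at 16.7 and 13.5 in cortex and at 1.01 and 2.38 in liver (difference −3.19 ± 0.54, limma, adjusted p = 0.0185). TCONS_00029941 was at 7.88 and 7.86 in cortex and at 1.82 and 2.38 in liver. Apart from TCONS_00037997 and the Nrep transcript, both described above, the absolute log2 differences of these transcripts lay below that of TCONS_00089705.

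At a mean FPKM of 0.5 or more, 685 transcripts were detected in liver and 799 in cortex, 366 in both and 1118 in at least 1. The 10 most abundant transcripts held 57.4% and 60.9% of the summed FPKM of the liver columns and 73.6% and 48.0% of the cortex columns. TCONS_00082191, with a higher mean of 0.997, was the transcript just below the minimum for a test, and TCONS_00048717, at 1.002, was the one just inside it.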

How the data were processed

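RNA of liver and cortex was sequenced from TRIzol extracts and TruSeq Stranded libraries, per the labels' protocols, with bcl2fastq 2.15.0 and build rn5, per the submitters' processing notes. The authors deposited FPKM per transcript for selected lncRNAs, in a table with the column names of Cufflinks tracking output, per the file headers. Transcript length, in bases, is a deposited value of another kind. The sources used here give no aligner, annotation, strand setting or selection criteria. Codes Li and C were matched to the labels liver and cortex.

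FPKM were tested with limma 3.58.1 (R 4.3.3), with a mean-variance trend, on log2(FPKM + 0.1) over the 4 columns, for transcripts averaging at least 1 FPKM in either tissue, with Benjamini-Hochberg adjustment over all tested at 0.05. The fit left a median of 3.23 degrees of freedom per transcript. Tables were made with Python 3.11.15, pandas 2.3.3 and NumPy 2.4.6 and figures with matplotlib 3.10.9. A count test was not run, since the values are not counts. Depths were inferred from the steps of low FPKM with an assumed fragment length, and 83.1 to 86.4% of low values came within 0.15 of whole fragments. They are approximate, and floors drawn from them cover counting error only.

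Members and gene lists were chosen with earlier results of these data known. Named transcripts are the 5 most abundant of each tissue, the 10 largest called differences in each direction, the 10 smallest near-equal differences, tested members of 7 gene lists and the 5 with liver columns furthest apart. The microRNA list and the called transcripts at genes with a symbol were added after names and values were seen. The entry for Mir143 is named without its sequence. Of the called transcripts at genes with a symbol, those of 1 gene are not reported here.

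The test was checked on simulated data of 3 kinds. Where spreads followed the fitted model, which the test itself assumes, false calls stayed below the nominal rate. That form was written after a harsher one, with spreads shuffled from the real gaps between columns, in which false calls exceeded the nominal rate. Adjusted p-values near 0.05 are therefore weak, and the called transcripts as a set may hold more false calls than the threshold implies. Alternatives were other FPKM minimums and pseudocounts, fits on 12 columns without and with array weights, rescaled columns, sums per locus, a block for the column number, each column left out in turn and 5-fold rules of size.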

Additional observations from a re-analysis of the deposited data

How the results depend on the processing

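The number of calls changed with the settings. No called transcript changed direction under any alternative fit per transcript, but this was largely built in. Their liver and cortex columns did not overlap, so a left-out column or another minimum or pseudocount could not reverse the sign. A minimum of 2 FPKM tested 411 transcripts and called 242, of which 107 were higher in cortex, against 412 and 224. With each column left out in turn, the calls ranged from 132 to 398, those higher in liver from 30 to 199 and those higher in cortex from 102 to 214, and the low values came from leaving out a cortex column. Other fits gave 345 (pseudocount 0.01) to 505 (minimum 0.5, of 1118 tested), with 488 on 12 columns and 480 of 2142 with no minimum. The same-numbered columns did not deviate together (r = −0.047 over 772 transcripts, described across transcripts, and the labels give no pairing), and with the replicate block 365 were called, 169 higher in liver and 196 in cortex. Sums per locus called 362 of 637 loci, and of the 412 called transcripts 402 lay at a locus called in the same direction and 1, TCONS_00059277, at a locus whose sum went the other way (−0.36, not called). Only 102 of 602 tested loci held several tested transcripts, so that match is largely built in. Calls kept in every fit per transcript with both cortex columns numbered 157, and 55 were kept in all fits per transcript. Of the 60 called transcripts chosen for description, 18 lost the call under a setting that kept both cortex columns. Of 27 that were not called, 13 changed sign under some setting, with 0 of these changes called. Shared transcripts numbered 235 at 0.5 FPKM and 53 at 2 FPKM, where 109 were in liver only and 100 in cortex only, in place of 119, 174 and 208. By the mean of each tissue, 300 were in liver only. With a column left out, 135 to 146 were shared, 190 to 281 were in liver only and 227 to 285 in cortex only. Depth limits low values most in liver column 2, and 2 columns a tissue limit the precision of each spread.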

Other observations

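Some transcripts that were higher in liver than in cortex were higher still in a tissue outside the comparison. TCONS_00040651 on chromosome 16, with no reference gene, was at 1.08 and 1.42 FPKM in liver and below 0.01 in cortex, and at 4.25 and 3.30 in left ventricle. TCONS_00113916 on chromosome X was at 2.34 and 1.10 in liver, at 0.0623 and 0.108 in cortex and at 6.03 and 5.06 in adrenal gland. Psd3, a gene of an exchange factor for small GTPases, was overlapped by TCONS_00040312, at 8.48 and 5.53 in liver, 0.655 and 0.834 in cortex and 11.2 and 7.08 in adrenal gland. The levels outside liver and cortex were not part of the test.

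Some transcripts higher in cortex than in liver were also higher still in a tissue outside the comparison, as counted above. TCONS_00026386, which matches ENSRNOG00000001347, was at 2.62 and 2.78 FPKM in cortex and at 1.0001 and 1.19 in liver, and stood at 16.4 and 14.1 in left ventricle. By contrast, TCONS_00010104 was at 5.47 and 4.93 in cortex and at 1.24 and 1.16 in liver, and did not exceed 0.439 in left ventricle, adrenal gland or hypothalamus. TCONS_00089812 was at 8.15 and 6.28 in cortex and at 1.64 and 1.33 in liver, and was listed at 0 in both columns of adrenal gland and hypothalamus.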
